A study of Mus musculus with 4 samples.

Results

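Histone genes were examined in mouse DN3 thymocytes, early T cell precursors that lack CD4 and CD8 and carry CD25. The 79 genes were taken by symbol from a table of 23285 genes. Of these, 67 had symbols beginning with Hist and a number, and are called Hist or replication-dependent genes here. The class was read from the symbol alone, so Hist3h2bb-ps, a pseudogene by its symbol, is counted among the 67. The other 12 were H2af and H3f3 genes, H1f0 and H1fx, and are called replacement genes. Irradiated recipients had received fetal liver cells whose donors were wild type (WT) or of the genotype labelled Gata3(g/g) hypomorph, and sorting of DN3 cells for RNA sequencing followed 16 weeks later. GATA3 is a transcription factor that T cell precursors require, and a hypomorph retains reduced function. The labels give C57BL/6 as the strain of all 4 samples, 2 of each genotype, and do not give the age or number of the animals or whether host cells were separated from donor cells. By their sequence identifiers, the replicates 1 of both genotypes shared a run (run 1) and the replicates 2 shared another (run 2). What else differed between the runs is not given, so a difference between runs cannot be told apart from a difference between the cells, RNA or libraries of those dates. Separate animals are not stated for the replicates, and p-values therefore measure only the spread among these 4 samples. In bulk RNA, fewer cells of a type and less RNA per cell cannot be told apart.

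A nucleosome holds the core histones H2A, H2B, H3 and H4, and the linker histone H1 binds the DNA between nucleosomes. Replication-dependent histone genes lie in clusters and are expressed mainly in S phase, when new DNA is packaged. Their mRNAs typically end in a conserved stem-loop in place of a poly(A) tail, and the stem-loop-binding protein Slbp and a cleavage complex with the U7 small nuclear RNA act on it. Replacement histones are mostly made from polyadenylated mRNAs throughout the cell cycle. DN3 cells include resting cells and cells that have begun to divide after the pre-T cell receptor signals.

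The stem-loop is shown first because it was commoner among the Hist genes than among the replacement genes. A transcript of the GENCODE M21 annotation was said to hold it where the letters GGCTCTNNNNAGAGCC or GGCCCTNNNNAGGGCC occurred on the transcript strand. It was present in 44 of 67 Hist genes, 1 of 12 replacement genes and 0.370% of 21877 protein-coding genes. The commonest form, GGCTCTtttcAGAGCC, was found in 26 members, and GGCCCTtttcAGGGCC in 7. The following examples include 5 bases on either side, with the paired stem in capitals.
Hist1h1c: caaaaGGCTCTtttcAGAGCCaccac
Hist1h2bb: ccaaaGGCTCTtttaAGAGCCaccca
Hist2h2ac: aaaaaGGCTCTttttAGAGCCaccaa
Hist1h3f: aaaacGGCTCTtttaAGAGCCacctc
Hist1h4d: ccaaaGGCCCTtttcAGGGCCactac
Hist2h4: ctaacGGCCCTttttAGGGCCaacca
H2afx: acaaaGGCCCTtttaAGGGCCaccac
H2afx, which encodes the H2A.X variant that is phosphorylated at DNA breaks, was the replacement gene with the element. The poly(A) signal AATAAA lay in the last 50 bases of an annotated transcript in 14 Hist genes, 9 replacement genes and 69.6% of protein-coding genes. A missing match says only that these letters are not in the annotated transcript.

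RefSeq promoters (GRCm38.p6), from 250 bases before to 50 after each start, were searched on both strands for 3 short elements. The first, CCAAT, was present in 51 of 59 Hist promoters, 6 of 10 replacement promoters and 37.4% of 32851 promoters. Among the Hist families, 3 of 11 H4 promoters held it, against 48 of the 48 others. The TATA box, as TATAAA, was present in 34 Hist promoters, 1 replacement promoter and 13.6% of promoters. The octamer ATTTGCAT was present in 14 Hist promoters, 7 each of H2A and H2B genes, in 1 replacement promoter and in 1.74% of promoters. None of these 3 motifs contains another. The next 3 promoters belong to Hist genes that differed strongly between the runs, Hist2h2ac and Hist1h2bb upward and Hist1h1c downward, with motif matches in capitals.
Hist2h2ac, chr3:96220831-96221130, minus strand: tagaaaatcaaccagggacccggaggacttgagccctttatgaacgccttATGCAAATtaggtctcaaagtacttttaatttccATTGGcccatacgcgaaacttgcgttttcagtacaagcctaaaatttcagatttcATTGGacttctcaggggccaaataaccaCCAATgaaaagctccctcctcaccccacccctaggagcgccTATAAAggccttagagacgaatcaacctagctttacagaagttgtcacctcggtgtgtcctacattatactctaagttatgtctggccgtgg
Hist1h2bb, chr13:23746484-23746783, plus strand: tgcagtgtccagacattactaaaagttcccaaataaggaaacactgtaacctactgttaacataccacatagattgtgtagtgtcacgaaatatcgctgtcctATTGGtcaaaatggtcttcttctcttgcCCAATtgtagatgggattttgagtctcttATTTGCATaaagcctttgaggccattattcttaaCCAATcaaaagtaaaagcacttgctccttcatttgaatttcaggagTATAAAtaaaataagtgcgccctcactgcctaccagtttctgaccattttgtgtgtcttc
Hist1h1c, chr13:23738557-23738856, plus strand: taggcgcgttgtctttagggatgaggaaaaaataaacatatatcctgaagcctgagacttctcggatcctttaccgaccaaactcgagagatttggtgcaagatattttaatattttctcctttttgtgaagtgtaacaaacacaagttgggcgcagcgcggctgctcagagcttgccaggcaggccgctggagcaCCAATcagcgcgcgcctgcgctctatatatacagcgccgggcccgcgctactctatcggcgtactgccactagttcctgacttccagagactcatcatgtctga
Hist2h2ac and Hist1h2bb held all 3 motifs, while Hist1h1c held a single CCAAT. Motif content did not follow direction in every gene. Hist1h2bl, higher in run 2 by 3.17, held CCAAT but, like Hist1h1c, neither TATAAA nor the octamer. The median run difference was 1.36 on the log2 scale over the 42 tested Hist genes with CCAAT and 1.42 over the 8 without. It was 1.32 over the 30 with TATAAA and 1.5003 over the 20 without, and 1.64 over the 13 with the octamer and 1.32 over the 37 without. These differences were not tested.

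By position on mm10, 53 Hist genes lay on chromosome 13, 10 on chromosome 3, 3 on chromosome 11 and 1 on chromosome 6. Libraries held between 14331705 and 26901913 fragments, and the members took 0.550% of them in WT and 0.505% in Gata3(g/g) in run 1. In run 2 they took 0.833% in WT and 0.906% in Gata3(g/g). A mean of at least 1 FPKM (fragment counts scaled by transcript length and library size) over the 4 libraries was needed for testing. This left 56 Hist genes, namely 5 H1, 13 H2A, 17 H2B, 9 H3 and 12 H4 genes, and 9 replacement genes. Of those tested, Hist1h3d, Hist1h4j and Hist4h4 were under 1 FPKM in both run 1 libraries and passed through run 2, so that they had to be higher there, and 2 of them are among the calls given below. The 11 untested Hist genes had mean levels up to 0.729 FPKM and the untested H2afb1, H2afy2 and H2afy3 up to 0.142 FPKM. No fragment was counted in any library for 4 of the 14 untested genes.

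Near-identical copies make single Hist genes uncertain. In the tested Hist genes a median of 44.5% of 50-base windows (range 0.0% to 93.9%) also occurred in another gene's transcript, and 22 of 56 shared more than 50% of them. In the 9 replacement genes the median was 2.24% and the highest value 33.2%, in H2afz. How the authors' counting divided such reads is not given in the sources used here. In addition, 8 members share a locus entry with another gene in the authors' table, among them Hist1h1e and Hist1h2be.

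The classes moved apart between the runs. The Hist genes together gave 2840 CPM (counts scaled to a common library size) in WT and 2599 in Gata3(g/g) in run 1, and 6295 and 6480 in run 2. The replacement genes gave 2657 and 2449 CPM in run 1 and 2032 and 2581 in run 2. The ratio of Hist to replacement CPM was therefore 1.07 in WT and 1.06 in Gata3(g/g) in run 1, against 3.098 and 2.51 in run 2. On summed FPKM, which allows for length, the ratio was 2.97 and 3.01 in run 1 and 11.5 and 9.93 in run 2. The genotypes lay close together within run 1, and both run 2 ratios lay above both run 1 ratios. These sums carry no test, since 2 libraries against 2 cannot go below an exact two-sided p of 0.333.

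Every Hist family was higher in both run 2 libraries, by different amounts. From run 1 to run 2, summed H1 CPM rose 1.28-fold in WT and 1.29-fold in Gata3(g/g). H2A rose 2.28-fold and 2.17-fold, H2B 3.05-fold and 3.78-fold, and H3 2.96-fold and 2.81-fold. H4 showed the widest difference, 4.99-fold in WT and 6.55-fold in Gata3(g/g), and Hist2h4 held most of its run 2 fragments, 2907 in WT and 6137 in Gata3(g/g). The 10 most abundant Hist genes held between 68.1% and 76.7% of the summed Hist FPKM.

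**Figure D1:**
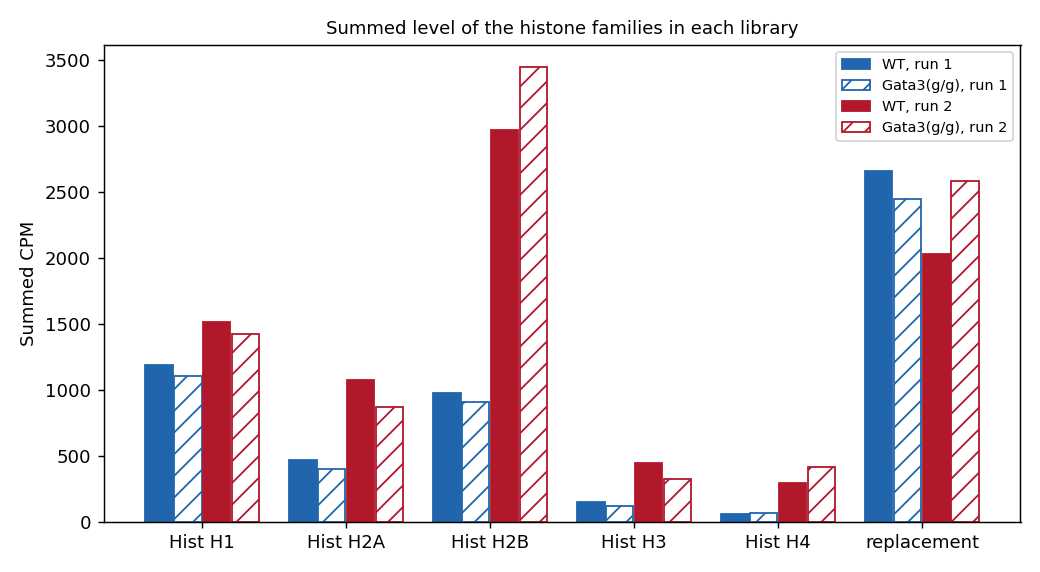
Summed CPM of each Hist family and of the replacement genes in each library; bars start at 0, colour marks the run and hatching the Gata3(g/g) libraries. In each of the 5 Hist families the run 2 bars stand above both run 1 bars, while the replacement genes range from 2032 to 2657 CPM with no such split.

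The test between the runs used edgeR on the 10224 genes that passed the filter, with 1 term and Benjamini-Hochberg adjustment over them at 0.05. Run 2 was higher in 26 of 56 Hist genes and lower in 1, against 4.27% of genes tested called higher and 3.07% called lower. The median log2 difference was 1.44 for the Hist genes and 0.00 for all genes tested, rounded. Among families the counts higher were 3 of 5 H1, 8 of 13 H2A, 9 of 17 H2B, 3 of 9 H3 and 3 of 12 H4 genes, with medians of 0.92, 1.31, 1.64, 1.61 and 1.42. The 3 genes that passed the filter only through run 2 remain in these counts and in those that follow. They are Hist1h3d among the H3 genes and Hist1h4j and Hist4h4 among the H4 genes. Of these, 2 were called higher, Hist4h4 included, and such calls are no support for a rise. In scaled CPM, both run 2 libraries of 45 Hist genes lay above both run 1 libraries, and those of 1 lay below; the shares of all genes were 30.1% and 30.5%. With the genotype as a second term, 41 Hist genes were called higher and 1 lower, against 17.5% and 17.3% of all genes. The count higher was 14 when WT replicate 1 was left out and 16 when Gata3(g/g) replicate 1 was left out, so the number of calls, though not the direction of the median, rested on those libraries.

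**Figure D2:**
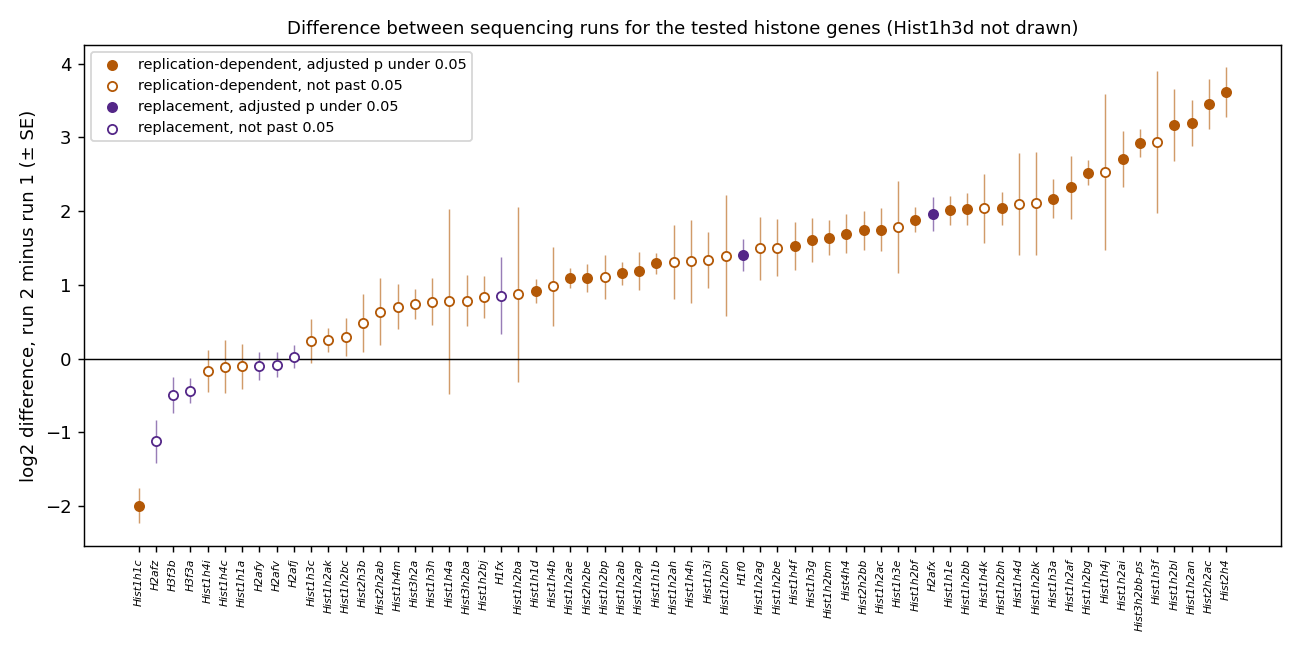
Log2 difference between run 2 and run 1 with its standard error (SE) for each tested member except Hist1h3d, which is not drawn, ordered by size; filled points passed an adjusted p of 0.05. Most Hist genes lie above 0, Hist1h1c lies lowest at -1.99, and 5 of the 9 replacement genes lie below 0.

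Levels of the most abundant Hist genes are given per library in FPKM. Hist1h2bb, an H2B gene with the highest mean, stood at 398 in WT and 416 in Gata3(g/g) in run 1 and at 1417 and 2019 in run 2. Its log2 difference between runs was 2.03 (SE 0.22, adjusted p = 0.0171). Hist1h2bm, also an H2B gene, stood at 338 and 304 in run 1 and 1249 and 842 in run 2. Both H2B genes had groups by run that did not overlap. The Hist1h2bm difference of 1.64 (SE 0.23) had an adjusted p of 0.0238, and of 0.0682 without WT replicate 1. Hist1h2bg, another H2B gene, stood at 146 and 134 in run 1 and 755 and 880 in run 2, a log2 difference of 2.52 (SE 0.17, adjusted p = 0.00428). Hist2h2bb, an H2B gene of the chromosome 3 cluster, stood at 161 and 123 in run 1 and at 595 and 375 in run 2. The same order, with both run 2 libraries above, held for it, and the log2 difference was 1.74 (adjusted p = 0.026).

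Hist2h4, an H4 gene at chromosome 3, 96262970 to 96263317, had the largest log2 difference among members with more than 1 fragment per run 1 library. It stood at 48.0 FPKM in WT and 73.8 in Gata3(g/g) in run 1 and at 592 and 1013 in run 2, a log2 difference of 3.61 (SE 0.34, adjusted p = 0.0117). Hist2h2ac, an H2A gene of the same chromosome 3 cluster, stood at 48.4 and 41.4 in run 1 and at 667 and 358 in run 2 (3.46, SE 0.34, adjusted p = 0.0127). In both genes each run 2 library was far above each run 1 library. Hist1h2an, an H2A gene, stood at 4.27 and 3.14 FPKM and then 38.4 and 32.6 (3.201, adjusted p = 0.0127), and 85.8% of its windows occurred elsewhere. Hist1h2bl, an H2B gene, stood at 10.2 and 4.06 and then 80.1 and 51.5 (3.17, adjusted p = 0.0254, or 0.0557 without WT replicate 2). Hist1h3f, an H3 gene, differed by 2.94 (SE 0.97) without passing the test (adjusted p = 0.11), and by 0.91 without WT replicate 2. Hist1h3d, also an H3 gene, had 1 and 0 fragments in run 1 and 42 and 58 in run 2, and no fold is given for counts this low. The linker gene Hist1h1e stood at 83.7 and 80.6 FPKM in run 1 and 359 and 296 in run 2 (2.01, SE 0.20, adjusted p = 0.0127).

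Hist1h1c, which encodes the linker histone H1.2, went the other way. It stood at 316 FPKM in WT and 270 in Gata3(g/g) in run 1 and at 58.4 and 87.5 in run 2, a log2 difference of -1.99 (SE 0.24, adjusted p = 0.0203). All 4 ways of leaving out 1 library kept the call, with values from -2.31 to -1.74. Its annotated transcript holds the stem-loop printed above, 840 bases before the end, and also AATAAA near the end. Hist1h1e holds the stem-loop without AATAAA, and Hist2h4, higher in run 2 by 3.61, holds both elements. Over the 11 tested Hist genes with AATAAA, 4 were called higher and 1 lower in run 2 and the median log2 difference was 1.10. The difference was above 0 in 10 of these 11. Over the 26 with the stem-loop and no AATAAA, 15 were called higher and 0 lower, with a median of 1.70. Some tested Hist genes held neither element. Over all 45 without AATAAA, 22 were called higher and 0 lower, with a median of 1.53. Over the 21 without the stem-loop, 8 were called higher and 0 lower, with a median of 1.31. These sets overlap, and the differences between them were not tested.

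A few other Hist genes had small run differences over both genotypes together, some of them moving in opposite directions in WT and Gata3(g/g). Hist1h2ak, an abundant H2A gene, stood at 385 and 316 FPKM in run 1 and 466 and 403 in run 2 (0.25, adjusted p = 0.359). The H1 gene Hist1h1a stood at 17.5 and 16.1 and then 20.03 and 11.4, and the H4 gene Hist1h4c at 10.5 and 8.62 and then 10.3 and 8.68. Hist1h4i, another H4 gene, stood at 16.7 and 11.6 and then 11.9 and 13.9, and the H3 gene Hist1h3c at 43.6 and 42.1 and then 35.3 and 68.9. In FPKM the libraries of the 2 runs overlapped in Hist1h1a, Hist1h4c, Hist1h4i and Hist1h3c, while both run 2 values of Hist1h2ak lay above both run 1 values and the test did not call it. By copy sharing, the median run difference was 1.44 over the 22 Hist genes with more than 50% of windows shared and 1.41 over the other 34.

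**Figure D3:**
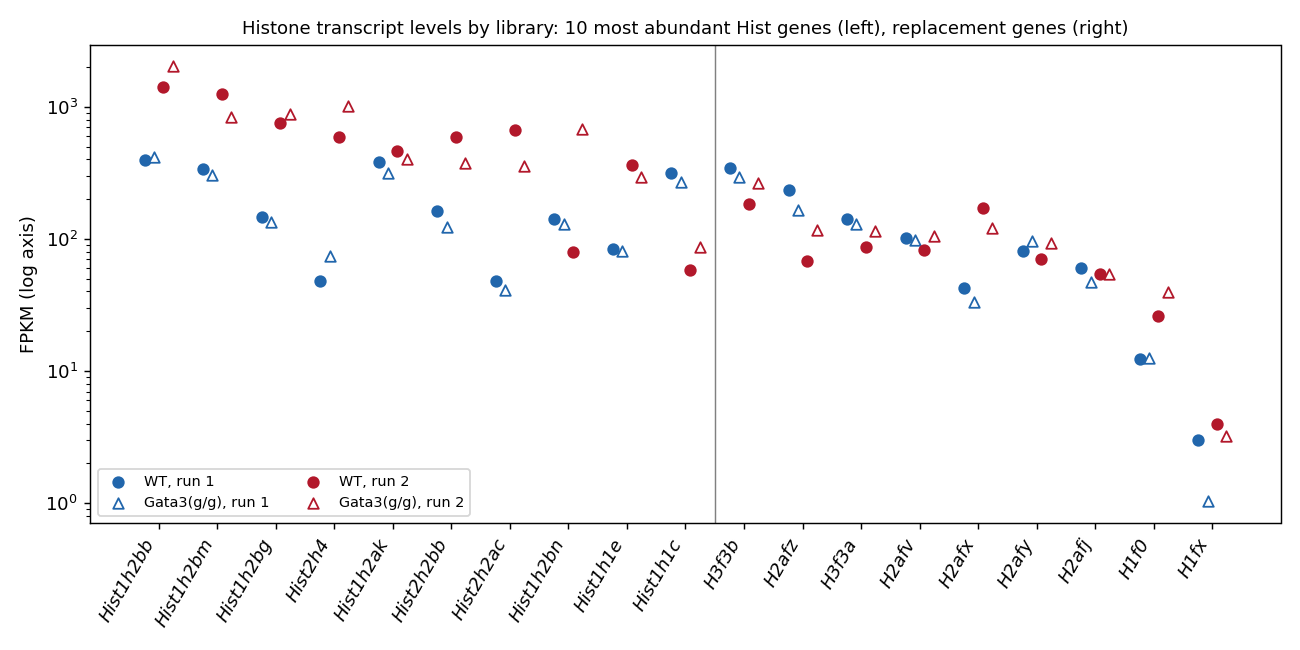
FPKM on a log axis in each library for the 10 most abundant Hist genes (left) and the 9 tested replacement genes (right); circles are WT, triangles Gata3(g/g), and colour marks the run. Run 2 points lie above run 1 points in most of the Hist genes shown, below them in Hist1h1c, H2afz, H3f3a and H3f3b, and Hist1h2bn has 1 high Gata3(g/g) point at 680.

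Replacement genes did not move in a common direction as a class. Between the runs, 2 of 9 were called higher and 0 lower, against 4.27% and 3.07% of all genes, with a median of -0.08. With the genotype term 3 were called higher and 3 lower, against 17.5% and 17.3% of all genes. H2afx, the stem-loop gene shown above, stood at 42.5 FPKM in WT and 33.0 in Gata3(g/g) in run 1 and at 171 and 122 in run 2 (1.96, SE 0.23, adjusted p = 0.0189). Both run 2 libraries were above both run 1 libraries. H1f0, a linker histone gene associated with cells that have left the cycle, stood at 12.4 and 12.6 and then 26.1 and 39.5 (1.41, SE 0.21, adjusted p = 0.0253, or 0.0855 without WT replicate 1). H1fx, another linker gene, stood at 3.01 and 1.03 and then 3.97 and 3.23 (0.85, adjusted p = 0.32, or 0.0365 with the genotype term).

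The H2A.Z gene H2afz stood at 236 and 166 FPKM in run 1 and 68.2 and 117 in run 2, so that both run 2 libraries were lower. Its log2 difference was -1.12 (SE 0.29) with an adjusted p of 0.0676, and of 0.000414 with the genotype term. H3f3a and H3f3b both encode H3.3, which is placed outside replication. H3f3a stood at 142 and 130 in run 1 and 87.1 and 115 in run 2 (-0.43, adjusted p = 0.159, or 0.0188 with the genotype term). H3f3b stood at 344 and 292 and then 182 and 265 (-0.49, adjusted p = 0.234, or 0.0438 with the genotype term). Both H3.3 genes were lower in both run 2 libraries.

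H2afv, the second H2A.Z gene, stood at 102 and 98.9 in run 1 and 82.9 and 105 in run 2 (-0.08). H2afy, which encodes macroH2A1, stood at 81.1 and 96.0 and then 70.4 and 93.3 (-0.10). H2afj, which encodes H2A.J, stood at 59.8 and 47.2 and then 53.8 and 53.8 (0.03, and -0.14 with no filter on low genes). The runs overlapped in these 3 genes and none of them passed the test under either model.

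Genotype was the labelled contrast. Without a second term edgeR called 0 members, and 0 of 10224 genes (0.0%), at an adjusted p under 0.05. At an unadjusted p under 0.05 it called 0 members against 3.84% of genes, and DESeq2 called 0 members and 0.861% of genes. With the replicate number, which marks the run, as a block, edgeR called 2 Hist genes higher in Gata3(g/g) and 10 lower, beside 3.9% of genes higher and 2.99% lower. It called 0 replacement genes higher and 1 lower. The median log2 difference in that model was -0.23 for Hist genes, 0.13 for replacement genes and 0.01 for all genes tested. Within both runs, the Gata3(g/g) library was the higher one in 7 of the 56 Hist genes and the lower one in 26; for all genes the shares were 33.1% and 31.3%. In scaled CPM both Gata3(g/g) libraries lay above both WT libraries in 0 Hist genes and below them in 4, beside 14.8% and 14.5% of all genes. That model keeps 1 residual degree of freedom, and with the same block DESeq2 called 1 Hist gene higher and 4 lower and limma on log2(FPKM + 1) called 0 in either direction. The shares of all genes called by DESeq2 and limma with the block are not given here. Leaving out a library unbalances genotype and run, and the Hist median without the block went from -0.25 to 0.64 without WT replicate 2 and to 0.28 without Gata3(g/g) replicate 1.

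The 2 genes called higher were an H4 and an H2B gene. Hist2h4, whose levels are given above, was higher in Gata3(g/g) by 0.68 log2 CPM in run 1 and 0.70 in run 2 (0.69 in the block model, SE 0.13, adjusted p = 0.00241). Hist1h2be, an H2B gene, stood at 12.6 FPKM in WT and 13.1 in Gata3(g/g) in run 1 and at 20.9 and 51.2 in run 2 (0.68, SE 0.20, adjusted p = 0.0494). The rise in Hist1h2be lay almost wholly in run 2, with 0.07 in run 1 and 1.28 in run 2, and its locus entry is shared with Hist1h1e.

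Among the 10 called lower, 3 were H3 genes, 3 H2A, 3 H2B and 1 H4. Hist1h3f, an H3 gene at chromosome 13, 23544052 to 23545054, had the largest difference. It stood at 11.4 FPKM in WT and 3.47 in Gata3(g/g) in run 1 and at 98.6 and 13.9 in run 2, lower in Gata3(g/g) within each run. Its log2 difference was -2.33 (SE 0.21, adjusted p = 2.06e-06 with the block). Hist1h4d, an H4 gene, stood at 15.04 and 6.80 and then 76.4 and 21.1 (-1.56, SE 0.29, adjusted p = 0.00291). Hist1h3e, an H3 gene with 73.4% of its windows shared, stood at 28.9 and 23.0 and then 149 and 35.5 (-1.23, SE 0.29, adjusted p = 0.0148). In Hist1h3f and Hist1h4d the drop was present in both runs, and in Hist1h3e it was -0.28 in run 1 and -2.12 in run 2.

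The remaining lower calls were smaller. Hist1h2bl differed by -0.92, Hist1h2ag by -0.86, Hist3h2ba by -0.70, Hist1h2ac by -0.61, Hist2h2ac by -0.60, Hist2h2bb by -0.53 and Hist1h3a by -0.50, with adjusted p-values from 0.0139 for Hist3h2ba to 0.0453 for Hist1h3a. Hist3h2ba, an H2B gene on chromosome 11, stood at 58.6 FPKM in WT and 44.8 in Gata3(g/g) in run 1 and at 121 and 59.7 in run 2. Hist1h2ac, an H2A gene, stood at 4.57 and 3.302 and then 16.3 and 9.74. Another H2A gene, Hist1h2ag, stood at 10.9 and 6.20 and then 32.0 and 17.3. Hist1h3a, an H3 gene, stood at 33.8 and 21.1 and then 140 and 111. Each of these 7 was lower in Gata3(g/g) within both runs, while the genotypes overlapped once the runs were joined. The replacement gene called lower was H2afx (-0.43, SE 0.12, adjusted p = 0.048), lower by -0.34 in run 1 and -0.51 in run 2.

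**Figure D4:**
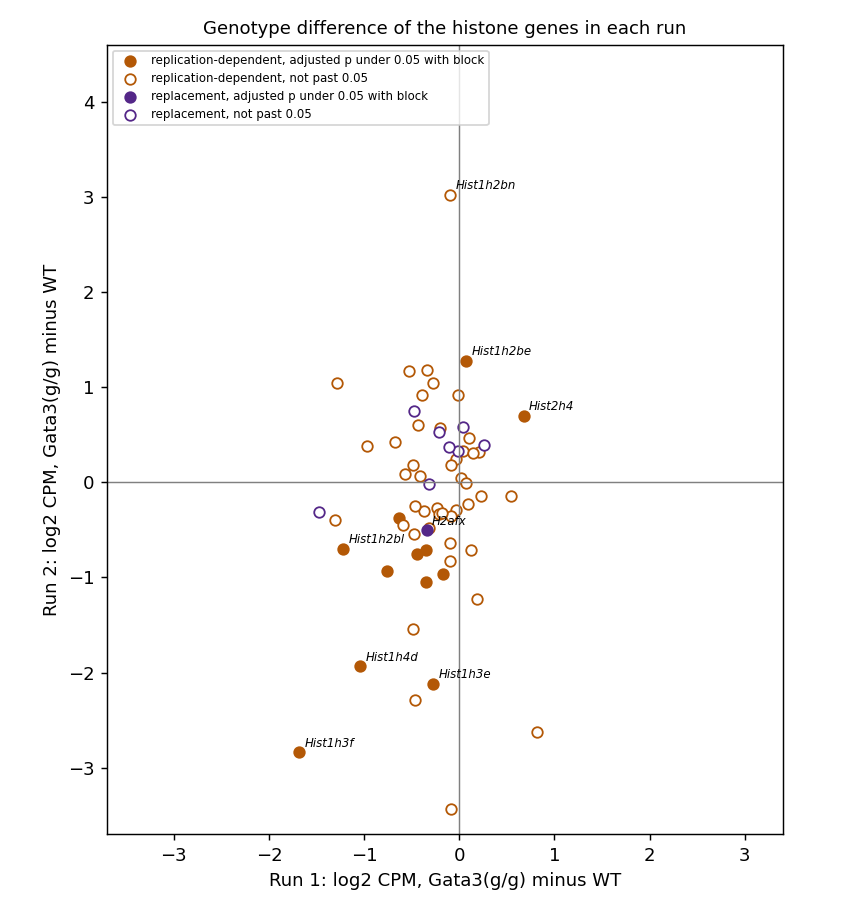
Log2 CPM difference, Gata3(g/g) minus WT, in run 1 (horizontal) and run 2 (vertical) for each tested member; filled points passed an adjusted p of 0.05 with the block. Hist1h3f and Hist1h4d lie low in both runs, and Hist1h2bn lies at -0.09 in run 1 and 3.02 in run 2.

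Genotype differences within a run were wider among Hist genes than over all genes. A difference above 2-fold within run 1 was seen in 5 Hist genes (8.93%), against 2.54% of all genes, and within run 2 in 15 (26.8%), against 4.24%. Hist1h2bn, an H2B gene with 86.4% of its windows shared, stood at 142 FPKM in WT and 129 in Gata3(g/g) in run 1 and at 79.7 and 680 in run 2. The Gata3(g/g) library of run 2 stood apart from the other 3 in that gene. Its adjusted p for genotype with the block was 0.0671, and without that library its run difference turned from 1.39 to -0.80.

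The authors' deposited table, which compares the genotypes without a run term in its columns, gave a q-value for 67 members. At a q under 0.05 it called 3 higher and 8 lower, beside 2.29% and 1.81% of its 11123 genes with a q-value. Hist1h2bn (log2 fold change 1.87), Hist2h4 (0.76) and Hist1h3i (0.74) were the higher genes in the authors' deposited table, and Hist1h3f (-2.66) had the lowest value among the 8 called lower. Of these 11 calls in the authors' deposited table, 8 were also called by edgeR with the block.

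Genes that act on histone mRNA and histone proteins were read from 4 lists, whose counts stand beside 4.27% of all genes called higher and 3.07% called lower between the runs (17.5% and 17.3% with the genotype term). Of 18 tested genes of histone mRNA processing, 2 were higher and 0 lower in run 2 (3 and 5 with the genotype term), with a median of -0.02. These 2 were Npat, a coactivator of histone gene transcription, at 5.48 FPKM in WT and 5.47 in Gata3(g/g) in run 1 and 14.1 and 10.6 in run 2 (1.20, SE 0.18, adjusted p = 0.0241), and its partner Casp8ap2 (0.76, SE 0.15, adjusted p = 0.038). Slbp stood at 54.4 and 60.3 FPKM in run 1 and 21.0 and 38.9 in run 2 (-0.92, SE 0.28, adjusted p = 0.095, or 0.000168 with the genotype term). Slbp and the Hist genes thus differed in opposite directions between the runs.

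Of 15 genes of histone mRNA decay, 1 was higher and 0 lower (3 and 0 with the genotype term), with a list median of 0.04. The gene called was the exonuclease gene Xrn1 (1.08, adjusted p = 0.036). The nuclease Eri1, which trims the stem-loop end, differed by 0.26 (adjusted p = 0.259). Of 25 histone chaperones and related factors, 5 were higher and 1 lower (7 and 3 with the genotype term), with a median of 0.15. The higher ones were Ubn2 (1.16), Ep400 (1.03), Hjurp (0.92), Atrx (0.85) and Dek (0.81), and the lower one Spty2d1 (-0.90). The H1 and H3-H4 chaperone Nasp differed by 0.35 (adjusted p = 0.251), Chaf1b of the replication-coupled CAF-1 complex by -0.06 and Hira, which deposits H3.3, by 0.03.

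Of 36 tested S phase genes, 0 were higher and 2 lower in run 2, with a list median of -0.22. With the genotype term 3 were higher, namely Ccna2 (0.48), Pole (0.47) and Gins1 (0.39), and 12 lower. The 2 lower without that term were the helicase subunits Mcm3 (-0.93, SE 0.15, adjusted p = 0.0297) and Mcm6 (-0.85, SE 0.18, adjusted p = 0.0474). Pcna, the polymerase clamp, stood at 329 FPKM in WT and 291 in Gata3(g/g) in run 1 and 212 and 224 in run 2 (-0.50, adjusted p = 0.114). Mcm2 differed by -0.68 (adjusted p = 0.0588). For genotype with the block, 2 of the 94 tested genes of the 4 lists were called lower (2.13%, against 2.99% of all genes) and 0 higher (against 3.9%). A share of this size is not a result about the lists. The genes were Snrpg (-0.51, adjusted p = 0.0237), a shared spliceosome and U7 core subunit, and Ipo4 (-0.61, adjusted p = 0.0112), a histone importer.

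Some markers of other cells also differed between the runs. Of the tested B lineage and double-positive markers, 0 of 2 and 0 of 4 were called for the run under either model. The 10 DN3 markers, among them Il2ra (CD25) at 261 to 569 FPKM, summed to 2273 FPKM in WT and 2684 in Gata3(g/g) in run 1 and 2692 and 2939 in run 2. Among these 10, 1 was called higher and 0 lower in run 2, against 4.27% and 3.07% of all genes. With the genotype term 4 were higher and 1 lower, against 17.5% and 17.3%. Of 9 erythroid markers 7 were tested and 7 were higher in run 2, and the list summed to 1.45 and 2.40 FPKM in run 1 and 465 and 594 in run 2. Of those 7, 6 were under 1 FPKM in both run 1 libraries and passed the filter through run 2, so that they had to be higher there. In run 1, the globin genes Hba-a1 and Hba-a2 were at 0 in both libraries. Of 9 myeloid and dendritic markers 4 were tested. S100a8 and S100a9 were higher in run 2, through which alone they passed the filter. Lyz2 stood lower in run 2 within each genotype, at 9.93 FPKM in WT and 18.7 in Gata3(g/g) in run 1 and 4.203 and 13.6 in run 2 (-0.81, adjusted p = 0.00492 with the genotype term, or 0.452 without it). This list summed to 14.4 and 22.8 FPKM in run 1 and 56.2 and 66.6 in run 2, with Elane at 0 in both run 1 libraries and Mpo under 0.2 FPKM in each library. The part of these cells in the Hist difference between runs was not tested. The 8 B lineage markers summed to between 31.6 and 39.5 FPKM, nearly all from Cd79b, with Pax5 at 0 in 3 libraries. The 5 double-positive markers summed to 20.8 FPKM in WT and 28.2 in Gata3(g/g) in run 1 and 14.1 and 25.2 in run 2, with Cd4 under 0.5 FPKM throughout. Across the 5 marker lists, Il2ra, Cd8a, Cd8b1, Hba-a2 and Lyz2 were called higher in Gata3(g/g) with the block and 0 lower. By list this was 1 of 10 tested DN3 markers, 2 of 4 double-positive, 1 of 7 erythroid and 1 of 4 myeloid. Of B lineage markers 0 of 2 were called, and of all genes 3.9% were called higher and 2.99% lower. Hba-a2, at 0 in both run 1 libraries, rested on the run 2 libraries alone. The part of such cells in the genotype differences was not tested.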

How the data were processed

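RNA sequencing of 2 WT and 2 Gata3(g/g) samples was analysed. Cuffdiff 2.1.1, TopHat2 2.0.8b, Bowtie2 2.1.0 and the build mm10 are named for the authors' work, per the submitters' processing notes. The authors deposited an estimated count and an FPKM value per gene and library, per the file headers, and a table of log2 fold changes and q-values between the genotypes. The sources used here do not give poly(A) selection, strand use or annotation.

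Estimated counts (97.7% to 98.9% within 0.01 of a whole number) were rounded, and 3 genes marked as too deep were left out. A count of 3 fragments, the floor used here for counting error only, equal 0.112 to 0.209 CPM. The 10224 genes with a mean of at least 1 FPKM were tested with edgeR 4.0.16 (R 4.3.3) by the quasi-likelihood F test, two-sided, with TMM scaling (factors 0.983 to 1.02) and Benjamini-Hochberg adjustment at 0.05. Models held the genotype or the run alone (2 residual degrees of freedom), or both. The pairing comes from the run in the labels' sequence identifiers, and across genes the run differences of the genotypes were correlated (Pearson r 0.754, genes not being independent replicates). A model with the genotype and the replicate block is printed beside the genotype results because it changes the calls. DESeq2 1.42.0, limma 3.58.1 (on log2(FPKM + 1)), other scalings, other filters and leaving out each library were alternatives. The SE is the log2 difference before shrinkage divided by the square root of F. Within-run differences are log2 CPM with a prior count of 2. The tests were tried on simulated data.

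Members given by name in each library were the replacement genes, the 10 Hist genes with the highest mean FPKM, genotype calls, and the 6 largest and 6 smallest run differences. Some genes among the authors' calls were named after their values were seen. Members and lists were chosen with earlier results of these data known. Of the listed markers, 1 is not reported by name here. Transcripts were those of GENCODE M21 (79 members matched) and promoters those of RefSeq GRCm38.p6 (76 matched, 68 with a promoter).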

Additional observations from a re-analysis of the deposited data

How the results depend on the processing

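Called Hist genes for genotype went from 0 higher and 0 lower to 2 and 10 with the replicate block, 1 and 4 in DESeq2 with the block, 2 and 7 on library totals with the block, 3 and 12 with no filter and the block, and 1 and 7 with the block and a stricter filter of FPKM 5. Replacement genes called lower went from 0 to 1 with the block, with or without the filter. The Hist median for genotype, -0.25, was -0.23 with the block, -0.26 in DESeq2 with the block, -0.21 in limma with or without it, -0.20 and -0.18 on library totals without and with it, -0.27 and -0.23 with no filter, and -0.23 and -0.22 at FPKM 5. Leaving out 1 library moved it from -1.03 to 0.64, and it was also reversed, at 0.28, without Gata3(g/g) replicate 1. The replicate block and the genotype term share 1 model. For most settings here and below, the share of all genes called is not given. Their counts therefore show only how far the calls moved with the setting.

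For the run, 26 Hist genes called higher became 41 with the genotype term, 17 in limma, 40 on library totals with the term and 40 with no filter and the term. Leaving out 1 library gave 14 to 35 higher and 1 to 2 lower. The median of 1.44 was 1.34 with the term, in edgeR, DESeq2 and on library totals alike, 1.26 in limma with or without it, 1.33 in limma with a pseudocount of 0.1 and the term, 1.29 with no filter, 1.18 with no filter and the term, and 1.26 to 1.56 with 1 library left out. Replacement genes called higher, 2, became 1 in limma and 1 to 2 with 1 library left out. Those called lower, 0, became 3 with the term, 1 in DESeq2 with or without it, 3 on library totals with the term, 3 with no filter with or without it, 2 at FPKM 5 with the term, and 0 to 1 with 1 library left out. The fold of the Hist to replacement ratio between runs, 2.62 as the geometric mean over genotypes, was 3.58 on summed FPKM, 2.08 without the most abundant member of each class and 3.04 with H2afx among the Hist genes. The H2afj run difference turned to -0.14 with no filter and -0.13 with the term as well. With 1 library left out, fitted without a second term, the genotype differences that changed sign had these lowest and highest values: H2afx -1.69 to 0.87, Hist1h2ac -1.67 to 0.53, Hist1h2ag -1.74 to 0.073, Hist1h2be -0.36 to 1.61, Hist1h2bl -3.40 to 1.37, Hist1h3a -2.01 to 0.95, Hist2h2ac -3.05 to 1.98, Hist2h2bb -1.58 to 0.60 and Hist2h4 -2.04 to 3.42. The same for run differences were H2afj -0.13 to 0.20, H2afv -0.25 to 0.076, H2afy -0.31 to 0.087, Hist1h1a -0.58 to 0.26, Hist1h2bn -0.80 to 2.23, Hist1h3c -0.30 to 0.62, Hist1h4c -0.28 to 0.058 and Hist1h4i -0.39 to 0.10. A leave-out leaves 1 group with 1 library, taken to vary like the other. It also unbalances genotype and run. Without a second term, the run difference then enters the genotype estimate, and the reverse. A change of sign under a leave-out therefore does not show whether a genotype difference held within each run. Other causes were not tested.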
